A study of Mus musculus with 6 samples.

Results

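The satellite cell and myogenic regulatory genes are 9 mouse genes, Pax7, Cdh15, Vcam1, Myf5, Myod1, Myog, Myf6, Mymk and Mymx, taken by symbol from the 57010 gene identifiers of a count table of gastrocnemius muscle, and all 9 were among the 15589 genes with enough counts to test. Muscle was compared between 3 mutants homozygous for the Dysf prmd allele on the congenic strain B6.A-Dysfprmd/GeneJ (also called BLAJ, C57BL/6 carrying the allele of strain A/J) and 3 wild-type C57BL/6 controls, all untreated and 3 months old. Mutant replicates 1 and 2 were female, while mutant replicate 3 and the 3 controls were male. Dysferlin, the product of Dysf, helps to reseal the torn membrane of the muscle fibre, and each library came from the muscle of 1 animal. The substrain of the controls and the litters are not given in the sources used here, so genotype, strain background and, in large part, sex cannot be told apart between the groups.

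Satellite cells are the stem cells of skeletal muscle and lie quiescent between the fibre and its basement membrane, marked by the transcription factor Pax7. After injury they divide and pass through the 4 myogenic regulatory factors, helix-loop-helix proteins that bind E-boxes as partners of the E proteins. Myf5 and MyoD commit cells to the lineage, myogenin drives differentiation, and the membrane proteins myomaker and myomixer then let the cells fuse into fibres. In resting adult muscle, Myf6 is expressed mainly by the nuclei of the fibres themselves. In whole muscle, fewer cells of a type and less RNA per cell cannot be told apart.

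Libraries held 35042245 to 40230648 assigned read pairs in mutants and 40367595 to 43733641 in controls, so that 3 counts equalled 0.0679 to 0.0826 CPM (read pairs of a gene scaled to a common library size), a limit that covers counting error only. Dysf stood at 15.8, 14.7 and 20.3 CPM in mutants and 72.2, 99.7 and 145 CPM in controls and was lower in mutants by edgeR (log2 -2.64, SE 0.28, adjusted p = 0.0249). Ifi202b and H2-Ea-ps, which C57BL/6 mice do not express, had 0 to 0.0264 CPM in mutants and 1.02 to 7.69 CPM in controls, so the controls do not match their labelled strain at these genes. Nnt, a further strain check, was low in both groups, at 0.185, 0.358 and 0.407 CPM in mutants and 0.125, 0.136 and 0.102 CPM in controls. Xist and Ddx3y followed the labelled sexes in all 6 libraries. All genes taken as markers of the muscle fibre were present in every library, with the fast myosin Myh4 at 46646 to 58419 CPM in mutants and 44426 to 75408 CPM in controls. Control replicate 2 was the highest library for 6 of the 9 genes, against 19.8% of all tested genes. It was at least 2 times the next library for 4 of them, against 1.41% of all tested genes.

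No member passed the test between the genotypes. The 4 myogenic regulatory factors had lower means in the mutants, Pax7 and Cdh15 had close ones, Vcam1 had a higher one, and the fusogen genes varied more between controls than between the groups. Of the 9 members, 0 were called by edgeR at an adjusted p below 0.05, where 0.199% of all 15589 tested genes were called, 0.0128% as higher and 0.186% as lower in mutants. At an unadjusted p below 0.05 there was 1 member, Myf6, against 6.94% of all tested genes in either direction and 3.69% lower in mutants. DESeq2 and limma-voom also called 0 members. At an unadjusted p below 0.05 DESeq2 had 4 members, Myf5, Myf6, Myod1 and Myog, among 1325 genes in all. Limma-voom had 1 member, Myf6, among 1025 genes. Without control replicate 2, DESeq2 had 2 members at that limit, Myf6 and Mymk, among 1435 genes. DESeq2 called 1.08% of the genes it tested, and the authors' deposited table calls 1.19% of its genes and 0 members. The log2 fold change was below 0 in 7 of the 9 members and in 50.2% of tested genes, and its median was -0.81 over the members and -0.0015 over all tested genes. Without control replicate 2 the members' median was -0.17.

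**Figure D1:**
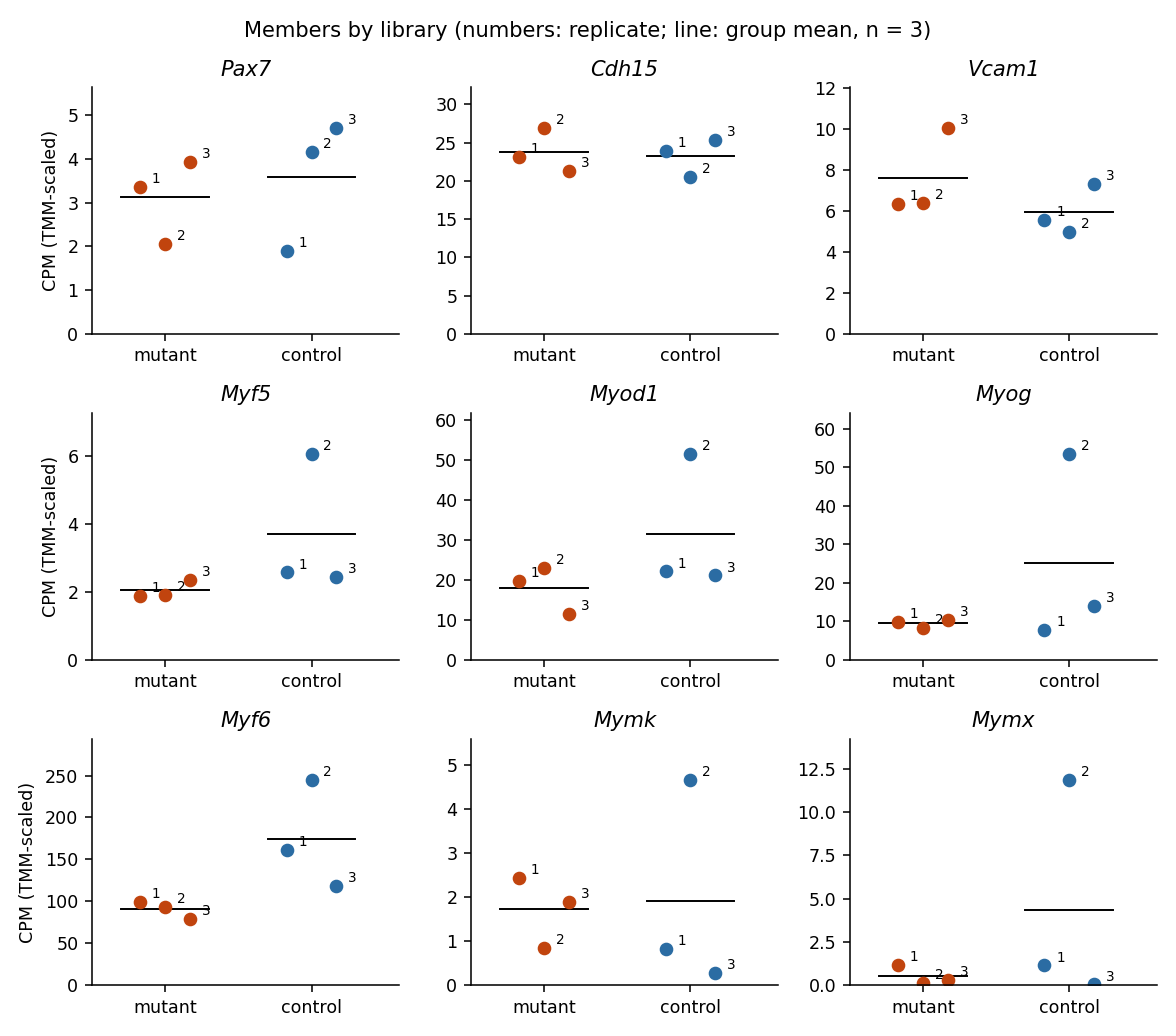
Level of each of the 9 genes in CPM (TMM-scaled, linear axis from 0) in mutant and control libraries; each point is 1 library with its replicate number and each line is the group mean of 3. Control replicate 2 is the highest point in 6 panels, by 10.2 times over the next library for Mymx.

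Pax7, the paired-box factor that maintains satellite cells, stood at 3.35, 2.07 and 3.94 CPM in mutants and 1.90, 4.16 and 4.70 CPM in controls. The lowest library was a control and the groups overlapped almost wholly. Means were 3.12 ± 0.96 CPM in mutants and 3.59 ± 1.49 CPM in controls (SD, n = 3 each), or -0.20 on the log2 scale with an SE of 0.40 (edgeR adjusted p = 0.958). These levels rest on 357 read pairs in the 3 mutants and 445 in the 3 controls.

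Cdh15, or M-cadherin, joins satellite cells to the fibre and to each other. It was the steadiest member, at 23.2, 26.9 and 21.3 CPM in mutants and 23.9, 20.5 and 25.4 CPM in controls. All 6 libraries lay within 0.39 on the log2 scale, and the difference was 0.03 on the log2 scale with an SE of 0.15 (edgeR adjusted p = 0.984). Control replicate 2, the highest library for most other members, was the lowest here.

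Vcam1, an adhesion receptor of satellite cells and of activated endothelium that binds integrins containing Itga4, stood at 6.34, 6.39 and 10.02 CPM in mutants and 5.54, 4.98 and 7.29 CPM in controls. Mutant replicate 3 was highest and control replicate 3 second, and the groups overlapped through that control. The difference was 0.35 on the log2 scale with an SE of 0.25 (edgeR adjusted p = 0.842). Adding sex to the fit gave 0.75, an estimate that sets the 1 male mutant, the highest library, against the controls. Leaving out that mutant, replicate 3, gave 0.10. The summed level of 8 endothelial markers was 334, 297 and 422 CPM in mutants and 285, 289 and 287 CPM in controls, and that of 8 fibroblast and fibro-adipogenic markers was 1027, 749 and 4325 CPM in mutants and 827, 1109 and 3465 CPM in controls. That of 7 smooth muscle and pericyte markers was 611, 589 and 743 CPM in mutants and 582, 516 and 481 CPM in controls, and that of 6 adipocyte markers 197, 287 and 306 CPM in mutants and 210, 145 and 183 CPM in controls. All of these sums were highest in mutant replicate 3, as Vcam1 was, but not every gene in them followed. In that library Col1a1 (2129 CPM) and Col3a1 (1501 CPM) made up most of the fibroblast sum, and Fabp4 (242 CPM) most of the adipocyte sum. Pdgfra was at 37.9 CPM there and 37.4 CPM in control replicate 3. Pi16 of the fibroblast list was highest in mutant replicate 1, and Adipoq of the adipocyte list in mutant replicate 2. The endothelial and the smooth muscle and pericyte sums also lay higher in every mutant than in any control. Of single tested genes, 5.97% did so. No gene of any of these marker lists was at 0, and the part of the markers in the Vcam1 values was not tested. Vcam1 was also the only member that gained counts when reads were assigned by strand, by 9.84% over all libraries, against losses of 0.14% to 1.75% in the other 8.

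Myf5, one of the factors that commit cells to muscle, stood at 1.88, 1.90 and 2.34 CPM in mutants and 2.57, 6.06 and 2.44 CPM in controls. Every mutant lay below every control, as for 6.08% of all tested genes, with mutant replicate 3 and control replicate 3 close together. On the log2 scale the difference was -0.86 with an SE of 0.39 (edgeR adjusted p = 0.749), and without control replicate 2 it was -0.30 with an SE of 0.26.

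Myod1, the other commitment factor, also acts in adult fast fibres and stood at 19.7, 22.9 and 11.3 CPM in mutants and 22.1, 51.5 and 21.1 CPM in controls. Mutant replicate 3 was lowest, mutant replicate 2 lay above control replicates 1 and 3, and control replicate 2 was 2.25 times the next library. Mutants differed from controls by -0.81 on the log2 scale with an SE of 0.42 (edgeR adjusted p = 0.786), against -0.27 with an SE of 0.29 without control replicate 2. With sex as a covariate it was -1.48 (edgeR adjusted p = 0.874), an estimate that sets the 1 male mutant, the lowest library, against the controls.

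Myf6, the factor of mature fibres, was the most abundant member and showed the smallest p of the 9. It stood at 99.3, 93.8 and 79.6 CPM in mutants and 161, 245 and 118 CPM in controls. Every mutant lay below every control, as for 6.08% of all tested genes. The 3 mutants were closer to each other than the controls were. Means were 90.9 ± 10.2 CPM in mutants and 175 ± 64.5 CPM in controls (SD, n = 3 each), or -0.94 on the log2 scale with an SE of 0.27 (edgeR adjusted p = 0.528). In the authors' deposited table it was -0.95 with an adjusted p of 0.0867. Without control replicate 2 the groups still did not overlap, as in 12.2% of tested genes, and the log2 fold change was -0.62 with an SE of 0.18 (edgeR adjusted p = 0.448). In the males alone, with 1 mutant, it was -1.13 with an SE of 0.47.

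Myog, which encodes myogenin, stood at 9.72, 8.32 and 10.2 CPM in mutants and 7.64, 53.4 and 14.0 CPM in controls. The mutants lay between control replicates 1 and 3, and control replicate 2 was 3.81 times the next library. The difference was -1.41 on the log2 scale (SE 0.68, edgeR adjusted p = 0.777) and -0.20 (SE 0.27) without that control. In the authors' deposited table Myog stood at -1.41 with an adjusted p of 0.366.

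Promoter windows of 300 bases, from 250 before the transcript start to 50 after it, were available from RefSeq on GRCm38.p6 for 4 members. Those of Myog and Myf5 are shown because both genes were at least 2 times higher in control replicate 2 than in any other library, and that of Cdh15 because it was level in all 6. Capitals mark the E-box CANNTG, which reads the same on both strands. The Myog window is chr1:134289754-134290053 on the plus strand, that of Myf5 is chr10:107486085-107486384 on the minus strand, and that of Cdh15 is chr8:122848124-122848423 on the plus strand.
Myog: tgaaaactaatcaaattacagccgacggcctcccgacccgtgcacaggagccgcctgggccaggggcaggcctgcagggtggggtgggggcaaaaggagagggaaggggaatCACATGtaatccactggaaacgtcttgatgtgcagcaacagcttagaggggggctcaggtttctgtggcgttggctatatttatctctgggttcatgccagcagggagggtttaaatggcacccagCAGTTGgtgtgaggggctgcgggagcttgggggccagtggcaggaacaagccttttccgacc
Myf5: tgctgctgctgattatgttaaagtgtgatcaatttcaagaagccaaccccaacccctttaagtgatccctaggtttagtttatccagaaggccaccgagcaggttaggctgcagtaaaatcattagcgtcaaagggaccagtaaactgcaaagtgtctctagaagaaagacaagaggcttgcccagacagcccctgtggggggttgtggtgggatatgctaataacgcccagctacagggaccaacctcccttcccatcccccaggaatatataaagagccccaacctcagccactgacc
Cdh15: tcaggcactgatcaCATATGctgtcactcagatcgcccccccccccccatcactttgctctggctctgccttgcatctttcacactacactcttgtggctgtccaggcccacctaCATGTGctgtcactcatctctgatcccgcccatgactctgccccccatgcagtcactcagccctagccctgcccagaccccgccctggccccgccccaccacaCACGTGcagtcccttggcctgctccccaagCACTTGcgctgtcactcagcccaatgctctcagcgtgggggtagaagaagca
The Myog window held 2 E-boxes, beginning 138 and 12 bases before the start, the Cdh15 window held 4, and those of Myf5 and Pax7 held none of these letters. At least 1 E-box occurred in 72.3% of the 32851 windows in the table and at least 4 in 6.49%.

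The 2 fusogen genes were low and uneven. Mymk, which encodes myomaker, stood at 2.43, 0.854 and 1.88 CPM in mutants and 0.824, 4.66 and 0.279 CPM in controls, from 11 to 206 read pairs per library. Control replicate 2 was highest and control replicate 3 lowest, with the mutants between them. The log2 fold change was -0.16 with an SE of 0.94 (edgeR adjusted p = 0.988). Without control replicate 2 the sign turned, to 1.64 with an SE of 0.64 (edgeR adjusted p = 0.58). All 3 mutants then lay above both controls, but only narrowly. Mutant replicate 2 held 31 read pairs and control replicate 1 held 33, so their order rests on the scaling. The share of all tested genes that lay so was not counted.

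Mymx, the gene of myomixer, had the largest spread of the 9. It stood at 1.16, 0.110 and 0.331 CPM in mutants and 1.15, 11.9 and 0.0508 CPM in controls, from 44, 4 and 13 read pairs in the mutants and 46, 524 and 2 in the controls. Control replicate 2 was 10.2 times the next library, while control replicate 3 was at the level of 3 counts or less. On the log2 scale the difference of -3.02 had an SE of 1.63 (edgeR adjusted p = 0.802), and was -0.17 (SE 1.29) without control replicate 2.

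**Figure D2:**
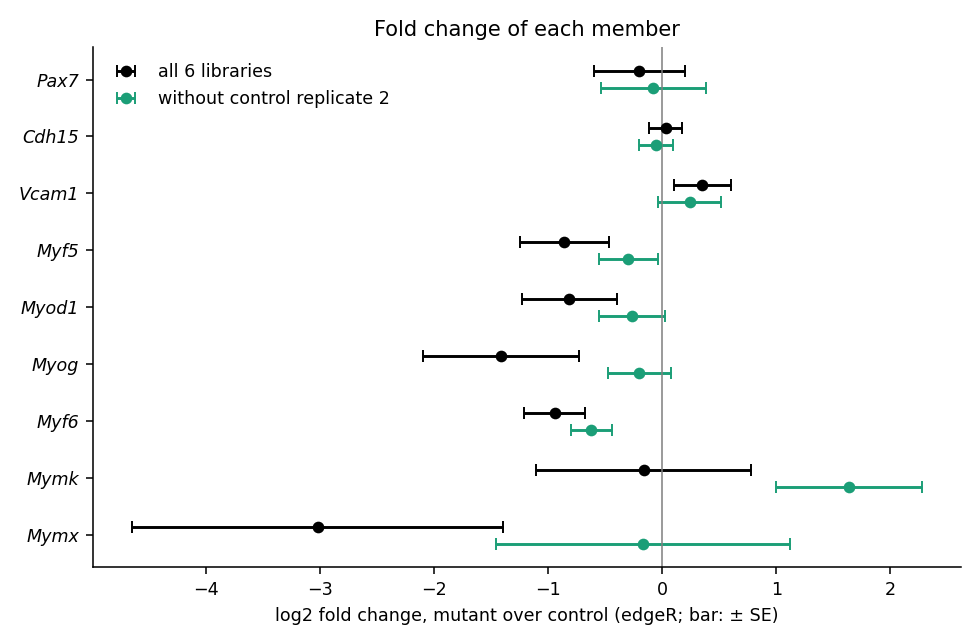
Log2 fold change of each gene, mutant over control, from edgeR (horizontal axis; bars are ± 1 SE), with all 6 libraries (black) and without control replicate 2 (green). Without that library Myog is at -0.20 and Mymx at -0.17, while Myf6 remains at -0.62 and Mymk lies at 1.64.

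Control replicate 2 held the highest value of 6 members, the 4 regulatory factors and both fusogen genes. It was the highest library for 19.8% of all tested genes. For Myf5, Myod1, Myog and Mymx it was at least 2 times the next library, which was so for 1.41% of tested genes, and no other library stood so for any member. Pax7, Cdh15 and Vcam1 were not highest there, at 0.886, 0.763 and 0.497 times the highest other library. The acetylcholine receptor and denervation genes moved with this library. Control replicate 2 was highest for 13 of the 15, and their summed level was 823, 696 and 556 CPM in mutants and 687, 2076 and 478 CPM in controls. Cdkn1a, an inhibitor of the cell cycle, stood at 17.6, 14.3 and 15.2 CPM in mutants and 21.2, 326 and 16.8 CPM in controls. Sln, which encodes the calcium pump regulator sarcolipin, belongs to another list, that of newly formed fibre genes. It stood at 14.6, 6.36 and 4.93 CPM in mutants and 7.91, 678 and 1.07 CPM in controls. The summed level of 8 macrophage and leukocyte markers, at 182, 113 and 148 CPM in mutants and 96.5, 97.6 and 148 CPM in controls, was not raised in control replicate 2. That of 7 Schwann cell markers was 91.8, 166 and 374 CPM in mutants and 125, 279 and 65.9 CPM in controls, highest in mutant replicate 3 and second in control replicate 2. The part of these genes in the members' values was not tested.

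Per length of all exons of a gene, the order of the members began with Myf6, Myod1 and Cdh15 in the mutants. On the scale of CPM per kb of exon, the mutant means were 72.0 ± 8.06 for Myf6, 9.66 ± 3.21 for Myod1, 7.31 ± 0.868 for Cdh15 and 6.30 ± 0.661 for Myog (SD, n = 3). Below these came Mymk at 1.14 ± 0.53, Myf5 at 0.979 ± 0.125, Vcam1 at 0.855 ± 0.238, Pax7 at 0.533 ± 0.164 and Mymx at 0.52 ± 0.54. Myod1, Cdh15 and Myog overlapped as neighbours in this order, as did Mymk with Myf5, Myf5 with Vcam1, and Pax7 with Mymx. In the controls, Myf6 at 138 ± 51.1 CPM per kb stood clear of Myod1 at 17.0 ± 9.29, and every later pair of neighbours overlapped. With the longest transcript as the length, Vcam1 averaged 1.85 ± 0.516 in mutants and 1.45 ± 0.295 CPM per kb in controls, and Pax7 in place of Mymx was lowest in the mutants, so that the lower end of the order depends on the length used. Myf6 was above every other member in both groups, and Pax7, at 0.612 ± 0.254 CPM per kb, was lowest in the controls.

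**Figure D3:**
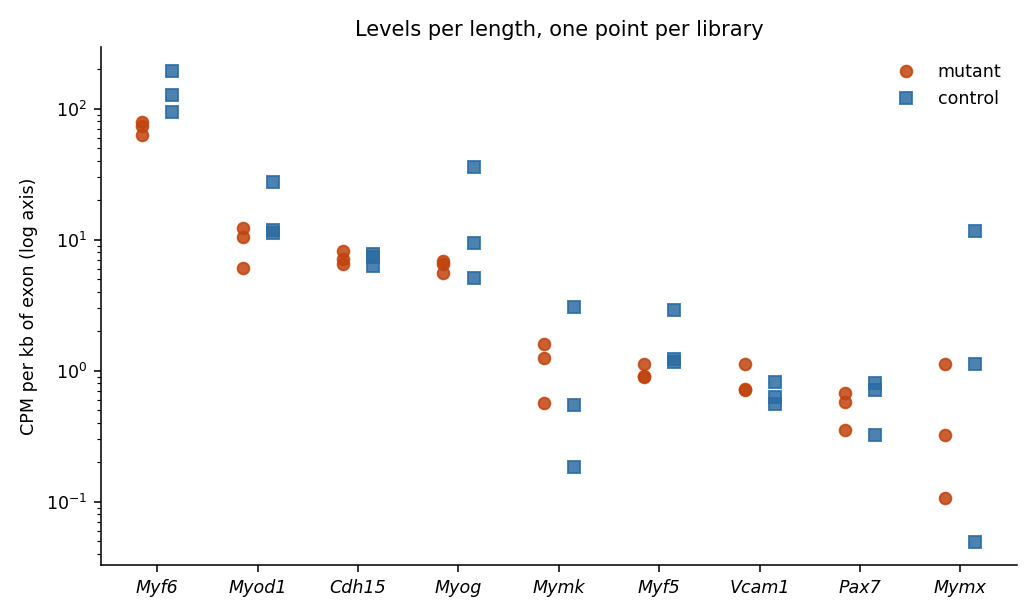
Level of each gene per length (CPM per kb of exon, log axis) with 1 point per library, mutants left of controls, ordered by the mutant mean. Myf6 stands above all others in every library, and Mymx spans the widest range.

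Among the 4 regulatory factors, the share of Myf6 in their summed level per length was 81.4%, 79.8% and 81.8% in the mutants and 87.5%, 74.5% and 81.0% in the controls. The mutants thus lay inside the range of the controls in the share of Myf6. The sum itself was 96.6, 93.0 and 77.1 CPM per kb in mutants and 146, 260 and 115 CPM per kb in controls, without overlap. Of single tested genes, 6.08% lay lower in mutants without overlap. Myf6 made up most of that sum, and Myod1 and Myog each overlapped between the groups. Myog made up 6.73%, 5.98% and 8.87% in the mutants and 3.50%, 13.7% and 8.13% in the controls. Control replicate 2 was the library with the highest share of Myog.

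The genes with the most alike pattern over the 6 libraries were sought for the 4 members that spanned more than 2 on the log2 scale, by the root mean square difference of centred log2 CPM. For Myog the nearest of 11790 candidates were Tbc1d31 (difference 0.139), the ankyrin-repeat gene Ankrd10 (0.148) and Fam49a (0.153). Ankrd10, for example, stood at 16.7, 20.1 and 22.3 CPM in mutants and 15.8, 105 and 28.0 CPM in controls. For Myod1 they were Rgs18 (0.132), a regulator of G-protein signalling, the collagen gene Col7a1 (0.192) and the transcriptional repressor gene Tgif1 (0.194). Mymk lay nearest to Lrrn1 (0.416), the ubiquitin hydrolase gene Uchl1 (0.434) and Myom3 (0.445), which encodes a protein of the sarcomere's M-band. Mymx lay nearest to Chrng (0.682), the fetal subunit of the acetylcholine receptor, then Sln (1.11) and Igfn1 (1.12). Chrng stood at 0.687, 0.248 and 0.483 CPM in mutants and 0.749, 20.1 and 0.0508 CPM in controls. These 12 genes were all highest in control replicate 2, as 19.8% of all tested genes were. They were chosen for likeness to members highest there, so their shared peak follows from the choice.

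**Figure D4:**
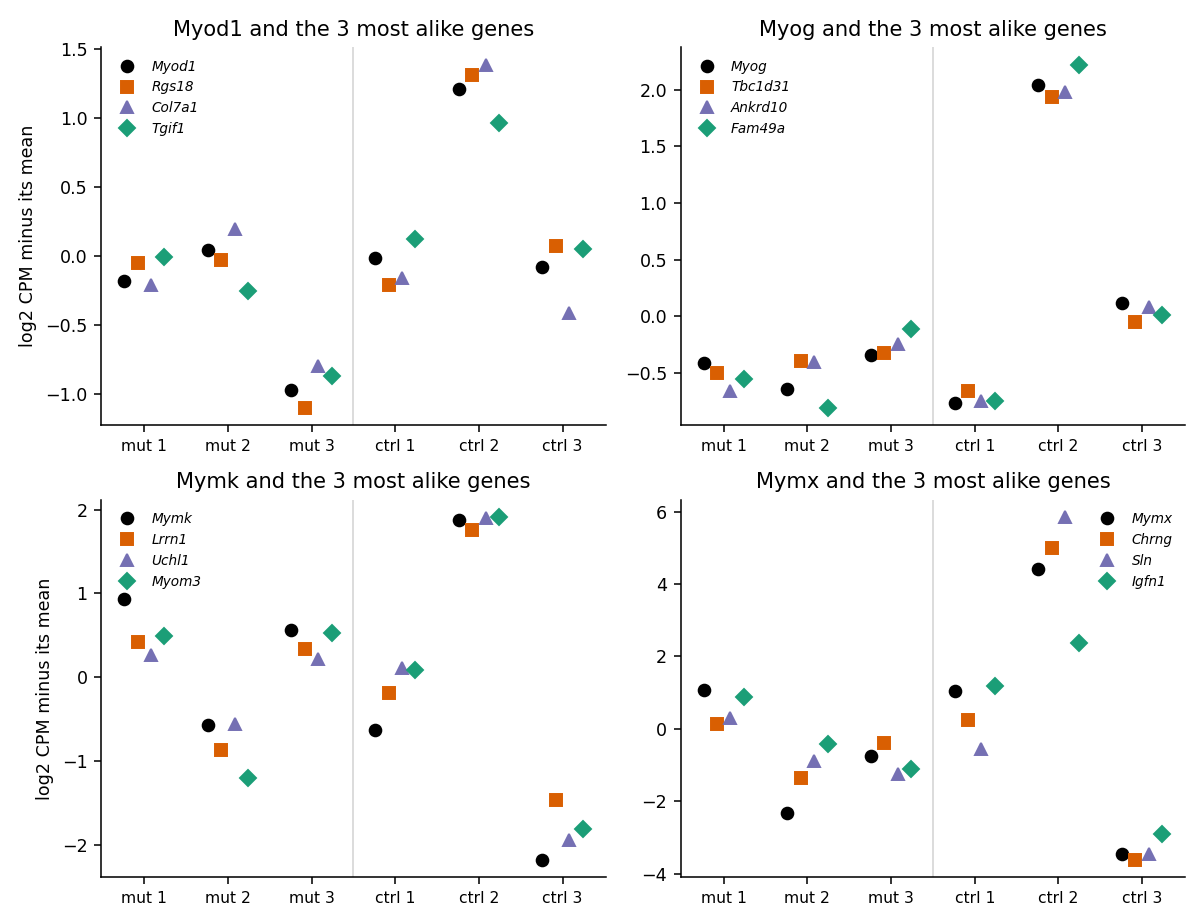
Log2 CPM minus the gene's mean (vertical axis) in each mutant and control library, for Myod1, Myog, Mymk and Mymx (black) and the 3 genes nearest to each (colours). In each panel all 4 genes are highest in control replicate 2, which follows from the choice of genes alike to a member highest there.

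Genes that act with the members were read from 9 lists, and 0 of their genes were called by edgeR, with 5 higher and 8 lower at an unadjusted p below 0.05 among 131 distinct genes tested. These are 3.82% and 6.11% of the list genes, against 3.25% higher and 3.69% lower among all tested genes. Among the partners and inhibitors of the regulatory factors, 0 of 14 tested genes were called in either direction, and 5 had a log2 fold change below 0 (median 0.20, and -0.037 without control replicate 1). Id1, which encodes a protein that binds E proteins and keeps them from DNA, stood at 18.2, 16.0 and 12.9 CPM in mutants and 9.66, 10.4 and 6.63 CPM in controls, without overlap (log2 0.82, SE 0.22, edgeR adjusted p = 0.496). DESeq2 without control replicate 2 called Id1 (log2 0.95, adjusted p = 0.0464) and its relative Id3 (log2 0.89, adjusted p = 0.00412), and with all libraries it called neither. Bhlhe40, a helix-loop-helix repressor, stood at 130, 151 and 114 CPM in mutants and 103, 81.2 and 82.7 CPM in controls (log2 0.57, SE 0.16, edgeR adjusted p = 0.53). Of all tested genes, 5.97% lay higher in mutants without overlap. The more abundant E protein gene Tcf4 stood at 63.7, 55.1 and 79.2 CPM in mutants and 53.5, 60.4 and 58.4 CPM in controls, with overlap.

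Among the MEF2 factors, the sine oculis homeobox factors and their co-regulators 0 of 21 were called, with a median log2 fold change of 0.05 (-0.042 without control replicate 1). Tead4, a TEA-domain transcription factor expressed in myoblasts, stood at 4.52, 3.61 and 4.50 CPM in mutants and 9.03, 22.7 and 12.6 CPM in controls (log2 -1.81, SE 0.34, edgeR adjusted p = 0.252). Every mutant lay below every control, as for 6.08% of all tested genes, and control replicate 2 was again highest. DESeq2 called Tead4 (adjusted p = 0.000112), also without control replicate 2 (log2 -1.36, adjusted p = 9.29e-05) but not with sex as a covariate. The coactivator gene Eya4 was at 45.6, 60.7 and 62.6 CPM in mutants and 84.6, 78.0 and 83.4 CPM in controls (log2 -0.54, SE 0.15, edgeR adjusted p = 0.525). Mef2c, the most abundant of the list, stood at 692, 759 and 564 CPM in mutants and 681, 783 and 806 CPM in controls.

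Satellite cell receptors and quiescence genes had 0 of 14 called and a median of 0.12, which was -0.20 without mutant replicate 3 and -0.15 without control replicate 1. The Notch pathway, which keeps satellite cells quiescent, had 0 of 14 called and a median of 0.0048, and 0.13 without control replicate 2. Fgfr1, a receptor for fibroblast growth factors, stood at 73.6, 76.8 and 76.1 CPM in mutants and 66.2, 59.0 and 66.4 CPM in controls (log2 0.24, SE 0.11, edgeR adjusted p = 0.754). Rbpj, the DNA-binding partner of Notch, stood at 29.1, 30.6 and 28.2 CPM in mutants and 20.8, 22.6 and 14.8 CPM in controls (log2 0.59, SE 0.17, edgeR adjusted p = 0.545). The ligand gene Dll4, also known from endothelium, stood at 11.2, 7.24 and 9.21 CPM in mutants and 6.56, 5.97 and 6.02 CPM in controls. All 3 genes were named for the smallest p of their lists. Each lay higher in every mutant than in any control, as 5.97% of all tested genes did. Sdc4, named by the same rule, stood at 26.4, 24.7 and 26.4 CPM in mutants and 41.7, 35.4 and 24.1 CPM in controls, with overlap. The integrin gene Itga7 stood at 97.4, 88.9 and 109 CPM in mutants and 114, 101 and 122 CPM in controls, with overlap.

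Recognition and fusion genes had 0 of 19 called and a median of 0.14, which was -0.022 without mutant replicate 3. Newly formed fibre genes had 0 of 13 called and a median of -0.012, which ran from -0.50 without control replicate 3 to 0.43 without control replicate 2. Tmem182, a muscle membrane protein gene, stood at 287, 262 and 280 CPM in mutants and 283, 263 and 327 CPM in controls. Ptgfrn, which encodes a partner of the tetraspanins CD9 and CD81, stood at 25.6, 17.8 and 55.7 CPM in mutants and 21.6, 147 and 39.1 CPM in controls, and so was highest in control replicate 2. Xirp1, an actin-binding gene of injured fibres, stood at 110, 119 and 183 CPM in mutants and 206, 187 and 267 CPM in controls (log2 -0.68, SE 0.24, edgeR adjusted p = 0.655). The fetal actin gene Actc1 was at 377, 156 and 3403 CPM in mutants and 78.8, 652 and 2774 CPM in controls, high in replicate 3 of each group.

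The acetylcholine receptor and denervation genes had 0 of 15 called, 14 of them with a log2 fold change below 0, and a median of -0.87. Without control replicate 2 that median was 0.21. Musk, the receptor kinase of the neuromuscular junction, did not follow that library, at 10.1, 14.1 and 11.1 CPM in mutants and 45.4, 31.9 and 28.0 CPM in controls (log2 -1.58, SE 0.22, edgeR adjusted p = 0.07). DESeq2 called Musk (adjusted p = 1.15e-06), also with sex as a covariate (adjusted p = 0.00636). Vcam1 ligands and endothelial activation genes had 0 of 16 called and a median of 0.13 (-0.065 with sex as a covariate). Il1r1, with the smallest p of that list, stood at 6.74, 9.64 and 7.83 CPM in mutants and 20.6, 9.57 and 15.7 CPM in controls. The groups overlapped (log2 -0.92, SE 0.29, edgeR adjusted p = 0.574), and DESeq2 without control replicate 2 called it (log2 -1.17, adjusted p = 0.00162). Nfkbia, an inhibitor of NF-kB, stood at 23.8, 22.4 and 31.2 CPM in mutants and 20.7, 20.2 and 19.2 CPM in controls. Cell cycle genes had 0 of 10 called and a median of 1.08. That median was 0.18 without mutant replicate 3, 1.85 without control replicate 3 and 2.08 with sex as a covariate. The fit with sex sets mutant replicate 3, the 1 male mutant, against the controls. Mki67, a proliferation marker, stood at 1.90, 0.551 and 9.97 CPM in mutants and 0.225, 0.634 and 1.93 CPM in controls, so that mutant replicate 3 held most of it.

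**Figure D5:**
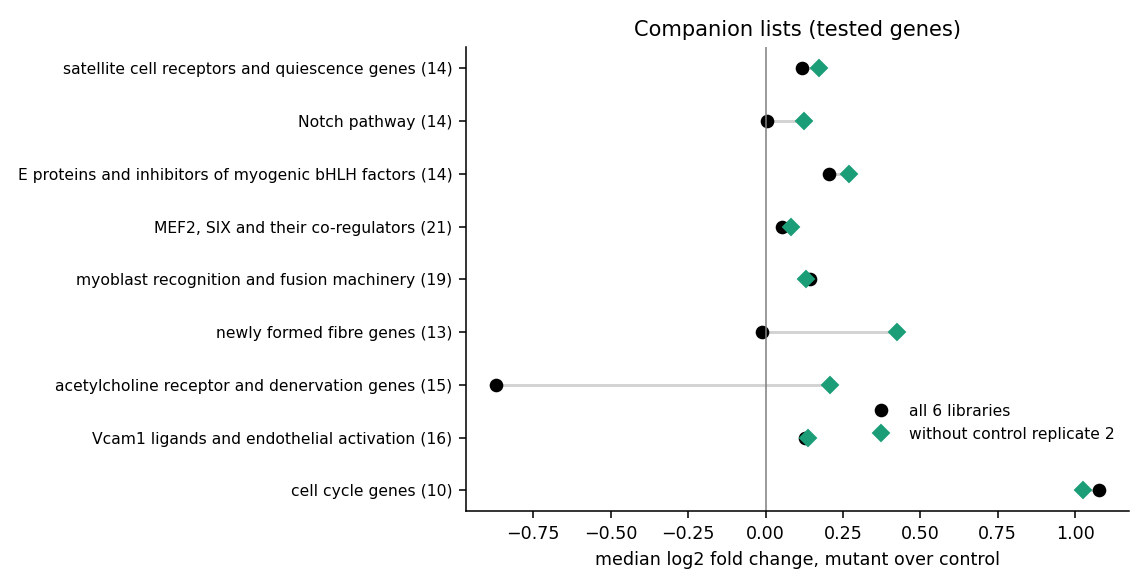
Median log2 fold change, mutant over control, of the tested genes of each companion list (number in brackets), with all 6 libraries (black) and without control replicate 2 (green). The acetylcholine receptor and denervation genes lie at -0.87 with that library and 0.21 without it.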

How the data were processed

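Polyadenylated RNA of gastrocnemius muscle was sequenced as directional paired-end libraries, per the labels' protocols. The deposited matrix holds whole-number counts of read pairs for each gene, and the submitters' processing notes name STAR 2.7.11b, DESeq2 1.50.2 and the build GRCm39. The sources used here do not give the annotation release. These counts equalled the unstranded column of the per-library files, which also count each strand. Entries that name no gene (18.5% to 22.3% of read pairs) were left out. The authors' deposited table holds log2 fold changes, Wald scores, p-values and mean normalized signal, from DESeq2 per the file headers.

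Counts were tested with edgeR 4.0.16 (R 4.3.3; TMM, filterByExpr with a minimum count of 10, robust quasi-likelihood F-test, Benjamini-Hochberg adjustment over all tested genes, threshold 0.05). Library totals were 35042245 to 43733641 read pairs. CPM use TMM-scaled library sizes. Exon lengths came from GENCODE M21, and symbols matched 52029 of 57010 identifiers. The procedure was tested on simulated data. DESeq2 1.42.0, limma-voom (limma 3.58.1), other normalizations, no filter, sex, the replicate number, males only, strand-matched counts and each library left out were alternatives. DESeq2 with sex and DESeq2 without control replicate 2 were added after seeing the data.

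Members and lists were chosen with earlier results of these data known. Genes named are the members, Dysf, checks of strain, sex and tissue, genes of each list by level (the 2 highest) and by p (the 2 smallest), and the 3 most alike genes of members spanning more than 2 in log2 CPM (prior count 0.5; candidates with a mean of at least 1 CPM). Not every gene the rule takes is described. Plots were drawn with matplotlib 3.10.9.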

Additional observations from a re-analysis of the deposited data

How the results depend on the processing

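No member was called in any of the 17 other settings, and the log2 fold changes of Myf5, Myf6, Myod1, Myog, Mymx and Vcam1 kept their direction in all 17. That of Myf6 ran from -1.17 to -0.62, with a smallest adjusted p of 0.0918 (DESeq2). Vcam1 ran from 0.10 to 0.76. Pax7 turned to 0.14 with sex as a covariate and in males only (0.12 in DESeq2 with sex), and ran from -0.51 to 0.031 with single libraries left out. Cdh15 turned to -0.13 with sex, -0.12 in males only and -0.14 in DESeq2 with sex, and ran from -0.065 to 0.10 with single libraries left out (-0.051 in DESeq2 without control replicate 2). Mymk turned to 0.57 in limma-voom and 0.66 with the replicate block, and ran from -0.68 to 1.64 with single libraries left out. The cause was not tested.

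Over all genes 31 were called, against 79 without a filter, 201 by DESeq2, 87 by DESeq2 with sex, 0 with sex as a covariate (882 at an unadjusted p below 0.05), 0 in males only (594) and 11 with the replicate block. With single libraries left out edgeR called 6 to 49 and DESeq2 without control replicate 2 called 300. Of the genes in the companion lists 0 were called, against 2 without a filter and 2 by DESeq2 (Tead4 and Musk in both), 1 by DESeq2 with sex, and 0 to 6 with single libraries left out. The 6 came from DESeq2 without control replicate 2. The replicate numbers matched the deviations of the libraries only in part. Same-numbered libraries had deviation correlations of 0.173, -0.061 and 0.178 for replicates 1, 2 and 3. Those of replicates 1 and 3 were the highest of all pairings, while mutant replicate 2 correlated best with control replicate 1 (0.156). With the longest transcript in place of the exon union, 4 of 9 members kept their rank by level per length in mutants and 7 of 9 in controls. The median log2 fold change of the list genes kept its sign in all 17 settings for the cell cycle genes (0.18 to 2.08) and turned in at least 1 for the other 8 lists. At this depth Mymx and Mymk rest on as few as 2 and 11 read pairs in a library.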

Other observations

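Calcr, Msc and Id3 were chosen after their values were seen, and Calcr and Msc were highest in mutant replicate 3. The calcitonin receptor gene Calcr, a marker of quiescent satellite cells, stood at 0.396, 0.386 and 2.01 CPM in mutants and 0.25, 0.747 and 0.813 CPM in the controls, with overlap. Msc, which encodes the helix-loop-helix repressor musculin, stood at 0.555, 0.358 and 3.00 CPM in mutants and 0.749, 0.996 and 1.63 CPM in the controls. The same mutant library held the highest Mki67 and Vcam1, while its Myod1 was the lowest of the 6. Mutant replicate 3 was the highest library for 19.1% of all tested genes. Other satellite cell markers were highest elsewhere: Pax7 in control replicate 3, Myf5 in control replicate 2 and Cdh15 in mutant replicate 2. Chrdl2, a further such marker, stood at 0.502, 0.992 and 1.78 CPM in mutants and 2.70, 1.97 and 1.30 CPM in the controls. Id3, another gene for an inhibitor of E proteins, stood at 24.9, 21.3 and 19.3 CPM in mutants and 12.5, 19.3 and 11.1 CPM in the controls, so that mutant replicate 3 and control replicate 2 were level.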
